A study of Saccharomyces cerevisiae with 2 samples.

Results

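Subtelomeric open reading frames (ORFs) were taken as the nuclear protein-coding ORFs of the R64 assembly whose whole coding span, from start codon to stop codon, lies within 25 kb of either end of a chromosome. There were 299 of them among 6002 nuclear ORFs, spread over 32 chromosome ends with 4 to 13 per end and a median of 10. The cells were Saccharomyces cerevisiae of the BY4741 laboratory background in which kanMX4 had replaced SET2 (set2Δ::kanMX4), grown in YPAD, a rich glucose medium, and collected in mid-log phase at OD 1. Transcripts were measured by TIF-Seq, which reads the capped 5′ end and the polyadenylated 3′ end of the same RNA molecule. Biological replicates from 2 cultures of this 1 genotype were pooled by the authors into 1 count column, and the series has no SET2 strain, so every value below is a pooled count with no spread between replicates and no comparison of genotypes. SET2 itself had 0 sense and 0 antisense molecules in the column.

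Chromosome ends in budding yeast carry telomeric repeats, X elements and, at many ends, Y′ elements, and the Sir proteins spread inwards from the telomere and silence genes placed near it. The flanking DNA holds families of near-identical genes for sugar uptake, cell wall proteins, vitamin synthesis and membrane proteins of the COS family. Set2 methylates lysine 36 of histone H3 behind elongating RNA polymerase II, a mark of transcribed genes that is read by the Rpd3S deacetylase complex and is known to restrain transcription from inside genes.

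Sequences at the most used start sites are shown first, to place the transcripts described below. PRE5 is the subtelomeric ORF with the most molecules (chrXIII:901606-901666, plus strand), IRC7 is the ORF nearest an end that had at least 50 (chrVI:264028-264088, plus strand), and HMRA1 lies at the silent mating-type locus HMR (chrIII:293763-293823, plus strand). BDS1 (chrXV:7028-7088, plus strand) and MAL31 (chrII:802962-803022, minus strand) had their most used start inside the ORF. ECM34 (chrVIII:15806-15866, minus strand) and BSC5 (chrXIV:761265-761325, plus strand) are shown for their antisense molecules. Each line gives the 60 bases before the start site and the start base, 5′ to 3′ on the strand of the transcript, from the RefSeq R64 sequence. Capitals mark positions -1 and +1, where a pyrimidine followed by a purine is the usual yeast initiator pair.
PRE5: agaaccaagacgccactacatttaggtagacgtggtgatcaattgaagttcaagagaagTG
IRC7: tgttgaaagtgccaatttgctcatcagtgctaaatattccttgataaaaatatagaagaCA
HMRA1: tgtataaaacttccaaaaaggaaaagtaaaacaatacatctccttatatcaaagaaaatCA
BDS1: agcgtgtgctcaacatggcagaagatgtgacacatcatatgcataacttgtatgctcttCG
MAL31: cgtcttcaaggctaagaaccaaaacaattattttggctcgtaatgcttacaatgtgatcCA
ECM34: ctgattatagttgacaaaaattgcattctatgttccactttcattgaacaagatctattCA
BSC5: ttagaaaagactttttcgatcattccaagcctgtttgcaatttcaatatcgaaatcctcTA

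Whether molecules can be placed at all in repeated sequence comes before any statement about silence. The COS genes, which encode membrane proteins of the DUP family, show the range. The first 60 coding bases were identical in 4 of the 11 subtelomeric COS genes, COS1, COS2, COS3 and COS5, and these 4 had 0 sense molecules between them. Below, capitals mark bases that differ from the commonest base of that position over the 11 copies. COS2 (chrII:811420-811479, minus strand) stands for the 4 identical copies, COS8 (chrVIII:6401-6460, plus strand) shares its 60 bases with COS7, and COS12 (chrVII:2790-2849, plus strand) is a diverged copy.
COS2: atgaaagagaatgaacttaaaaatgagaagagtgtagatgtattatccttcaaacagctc
COS8: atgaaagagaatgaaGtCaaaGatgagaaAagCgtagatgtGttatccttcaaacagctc
COS12: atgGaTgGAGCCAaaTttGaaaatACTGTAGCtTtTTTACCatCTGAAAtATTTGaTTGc

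Over the whole coding span, 0% of the 30-base words of COS2 occurred once in the genome, against 63.6% of those of COS8 and 100% of those of COS12. Their sense molecules numbered 0 in COS2, 41 in COS8 and 15 in COS12. This share of unique 30-base words was computed for every ORF, counting both strands. An ORF is called unique here where it reached 90% and repeated where it did not. The subtelomeric ORFs divided into 145 unique and 154 repeated ones, whereas 5425 of the 5703 other ORFs were unique. In the deposited table, 136 of 6074514 molecules (0.00224%) had neither end in a unique 30-base word, so reads from repeated sequence are nearly absent from it. A count of 0 in an ORF with little or no unique sequence in it and beside it therefore cannot be told apart from reads that could not be placed. Repeated ORFs above that level are a mixed group, and the silent counts are given for unique and repeated ORFs and by band of unique share.

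A molecule was counted as sense for the ORF it overlapped most on the same strand, and an ORF is called silent where it had 0 sense molecules. A count of 0 allows up to 3 molecules at this depth. Of the 299 subtelomeric ORFs, 150 were silent (50.2%, 95% Wilson interval 44.5% to 55.8%), against 360 of the 5703 other ORFs (6.31%) and 8.5% of all nuclear ORFs. Intervals here cover counting error only. At least 50 sense molecules were found in 27.1% of subtelomeric ORFs and in 72.4% of the others, with 70.1% over all nuclear ORFs. The median number of sense molecules was 0 per subtelomeric ORF and 126 per ORF elsewhere. A level measured on a whole culture cannot tell apart fewer cells that express a gene and less RNA per cell.

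Repeated sequence held most of the silent ORFs. Among repeated ORFs, 128 of 154 subtelomeric ones were silent (83.1%), against 129 of 278 elsewhere (46.4%). Among ORFs with under 10% unique words 77 of 81 subtelomeric ORFs and 101 of 115 others were silent. From 10% to under 50% the counts were 43 of 56 (76.8%) and 14 of 42 (33.3%), and from 50% to under 90% they were 8 of 17 (47.1%) and 14 of 121 (11.6%). The gap was small in the lowest band and wide in the other two. The bands take no account of the sequence beside the ORF, which was not compared with that beside other ORFs. How far placement of reads bears on the gap was therefore not tested. Of the 128 silent repeated ORFs, 106 had unique sequence neither in the 100 nt before the ORF nor in the 200 nt after it, and the remaining 22 had it on at least 1 side. Over all 154 repeated subtelomeric ORFs, silent or not, these numbers were 120 and 34. FLO10, HXT13, HXT17 and PAU11, from the families described below, are among the 22 silent ones with unique sequence beside them. FLO10 is 81.9% unique with 100% unique sequence on both sides, and 20 antisense molecules overlapped it. Of these, 12 started at position 649953, past the last coding base at 649865, and 12 ended at 649723, near the 3′ edge of the ORF.

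Unique subtelomeric ORFs were silent less often than the whole set and more often than unique ORFs elsewhere. The counts were 22 of 145 (15.2%) and 231 of 5425 (4.26%), with 21 of 355 (5.92%) among unique ORFs whose far coding base lies 25 to 50 kb from an end. Their median was 55 sense molecules (order-statistic interval 26 to 82), against 129 in other unique ORFs and 91 in those 25 to 50 kb from an end. Sense molecules reached 50 in 53.1% of unique subtelomeric ORFs and in 73.9% of other unique ORFs. The level was therefore lower near the ends within unique sequence too, by a smaller margin than over the whole set.

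The number of molecules is a level per gene, and whole-ORF molecules are scarce in long ORFs, so levels were set side by side within length windows of unique ORFs. From 501 to 1000 nt the median was 77 molecules in 44 subtelomeric ORFs and 253.5 in 1386 others. Between 1001 and 1500 nt it was 57 in 32 subtelomeric ORFs and 131 in 1212 others, and from 1501 to 2000 nt it was 58 in 27 and 89 in 843. At 25 to 50 kb the medians were 224, 121 and 56.5 in the same windows. Subtelomeric ORFs were lower than all others in each of the 3 windows, and lower than those at 25 to 50 kb up to 1500 nt but not from 1501 to 2000 nt. In ORFs of at most 500 nt, 12 of 27 subtelomeric ones were silent, against 12 of 54 at 25 to 50 kb and 125 of 762 among all others.

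Sense molecules increased with distance from the chromosome end. In successive 5 kb windows of distance, starting at the end, 48 of 56, 45 of 66, 35 of 65, 11 of 59 and 11 of 53 subtelomeric ORFs were silent. The median share of unique words changed in the same windows, at 7.16%, 24.9%, 71.2%, 100% and 100%. Over unique ORFs alone, 5 of 9, 4 of 19, 8 of 30, 3 of 45 and 2 of 42 were silent, and the median level was 0, 10, 21.5, 76 and 100 molecules. The step between 10 to 15 kb and 15 to 20 kb was therefore present in both the silent counts and the levels of unique ORFs.

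**Figure D1:**
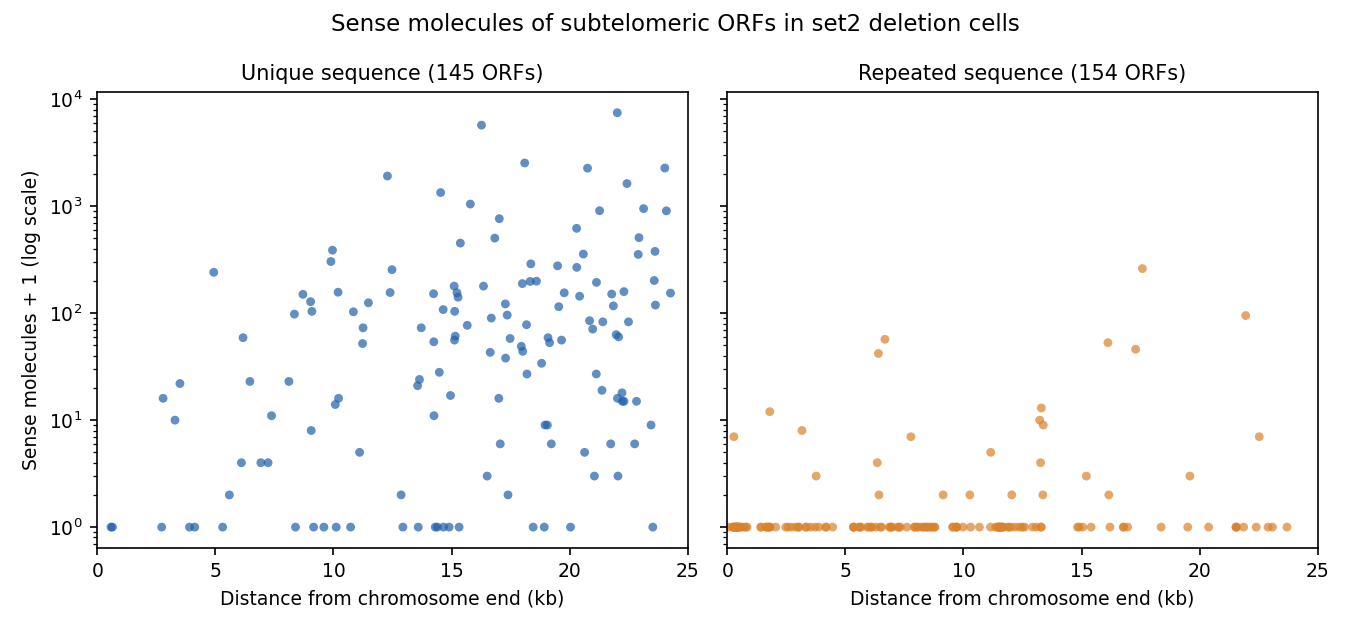
Sense molecules per subtelomeric ORF (y axis, count + 1 on a log scale) against the distance of its nearest coding base from the chromosome end (x axis, kb), for 145 unique ORFs (left) and 154 repeated ORFs (right). Each point is 1 ORF, and points on the bottom line have 0 molecules. Of the 154 repeated ORFs 128 lie on that line, and unique ORFs above 500 molecules appear only beyond 10 kb.

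The gradient was also seen without short ORFs. In unique ORFs over 500 nt, the medians by window were 15, 22, 25, 77 and 100 molecules, with 1 of 5, 2 of 16, 6 of 26, 1 of 37 and 0 of 34 silent. Spearman's rho between sense molecules and distance was 0.541 over the 299 ORFs, 0.331 over the 145 unique ORFs and 0.217 over the 154 repeated ones. Among 355 unique ORFs 25 to 50 kb from an end it was 0.0822. These values describe ORFs that share libraries, neighbours and sequence, so no test was made. Over the 299 ORFs, rho between sense molecules and the unique share was 0.726, larger than that with distance.

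**Figure D2:**
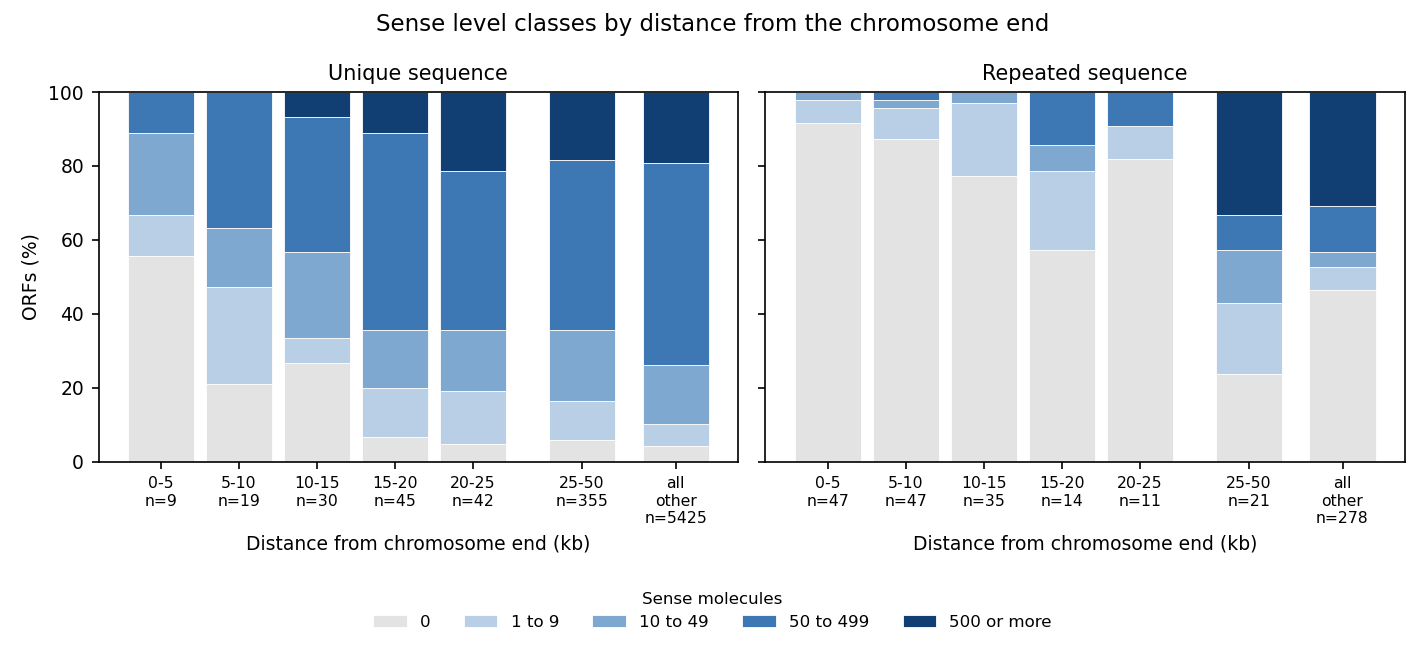
Share of ORFs (y axis, %) in 5 classes of sense molecules, by 5 kb window of distance from the chromosome end (x axis), for unique ORFs (left) and repeated ORFs (right). The last 2 bars of each panel are ORFs whose far coding base lies 25 to 50 kb from an end and all other nuclear ORFs, which include them. The silent class of unique ORFs is 5 of 9 in the first window and 2 of 42 in the last.

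The limit of 25 kb was set by the rule. Just inside it lie SFT2, SAM3 and DAL3, whose far coding bases are 24745, 24701 and 24859 nt from an end, with 904, 507 and 153 sense molecules. Just outside it lie TGL3, HPA2 and DAK2, at 25053, 25158 and 25198 nt, with 56, 5 and 29. All 6 ORFs consist of unique sequence.

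Chromosome ends differed widely in how far inwards the first ORF with counted sense molecules lay. At 29 of 32 ends the ORF nearest the end had no sense molecule, and at 30 ends some ORF within 25 kb had at least 1. Of these silent nearest ORFs only YFR057W, YIR042C and YOL166W-A are unique. The others are repeated, and with little unique sequence a 0 cannot be told apart from reads that were not placed. An ORF with at least 50 was found at 26 ends, at a distance of 4935 to 22937 nt with a median of 13984 nt. The other 6 ends, I left, I right, IX left, XI right, XIV right and XV right, had none. At I right and IX left every ORF was silent, and all 8 of the ORFs there are repeated. Total sense molecules per end ranged up to 10283 at XIII right, with a median of 376.5.

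**Figure D3:**
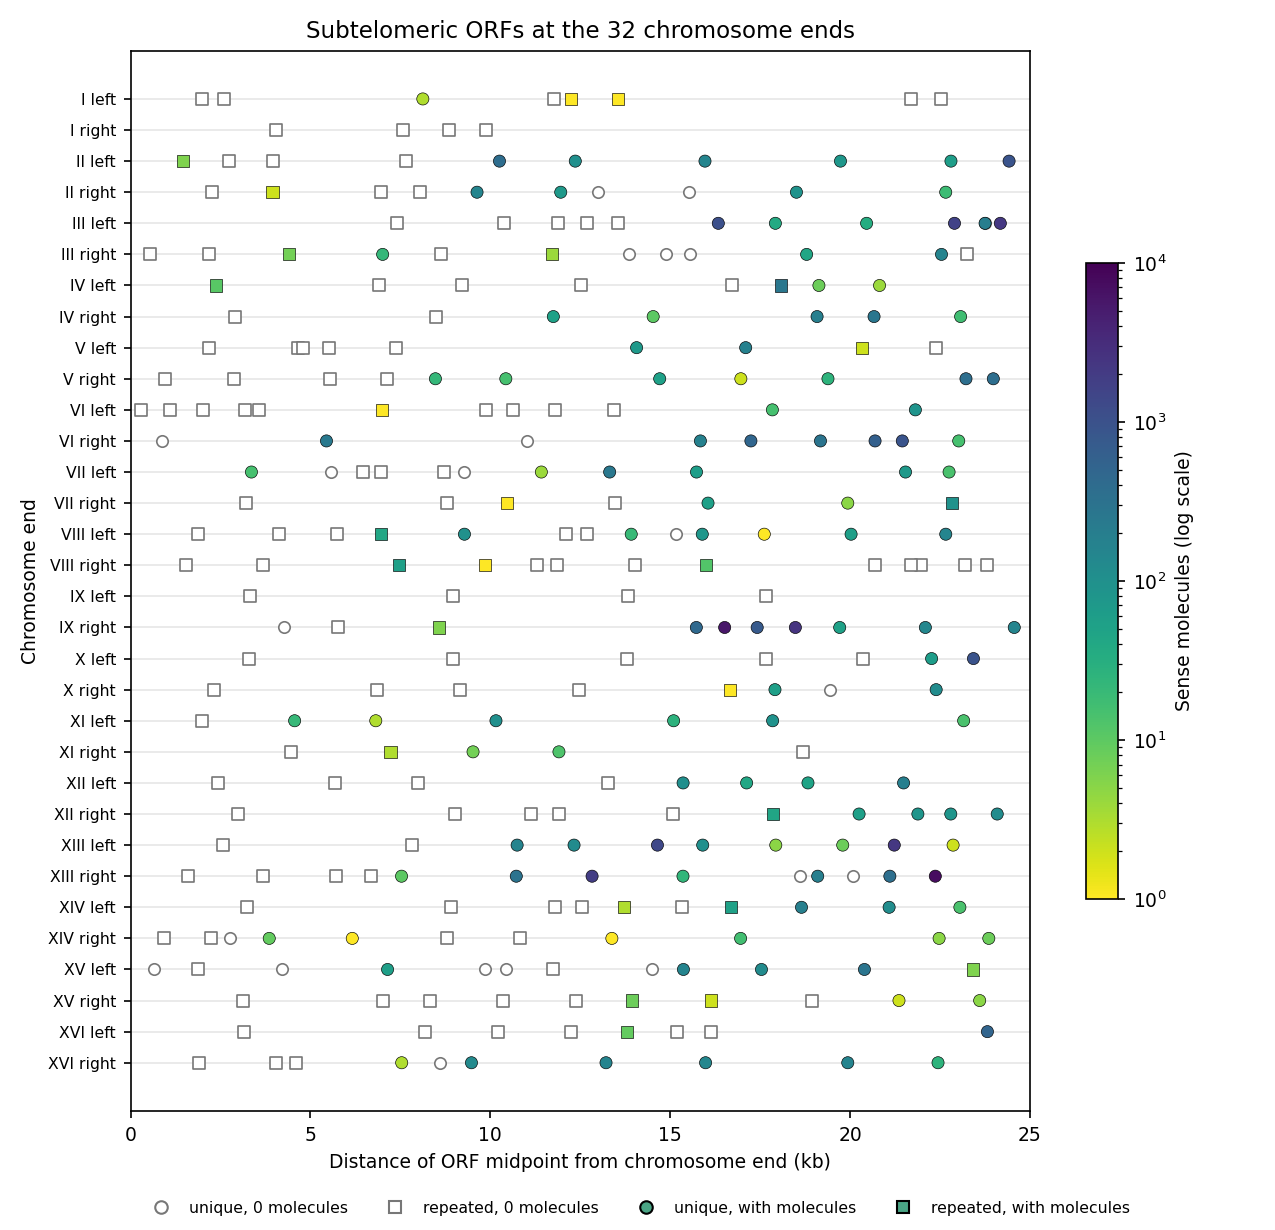
Position of each of the 299 ORFs at the 32 chromosome ends (rows), as the distance of its midpoint from the end (x axis, kb). Colour gives sense molecules on a log scale, open symbols have 0, circles are unique and squares are repeated ORFs. Open squares fill the outer part of most ends, and the ORF with at least 50 molecules nearest the end lies 4935 to 22937 nt in at the 26 ends that have one.

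Of the ORFs nearest an end with at least 50 sense molecules, IRC7 lay closest. IRC7 (YFR055W), a beta-lyase that acts on sulfur compounds, lies 4935 nt from the right end of chromosome VI, consists of unique sequence and had 240 sense molecules, 94 of them covering the whole ORF. Between it and the telomere lies YFR057W, at 645 nt, an ORF of unknown function that is often used to follow telomeric silencing. Although YFR057W is unique throughout, it had 0 molecules on either strand. Next by distance came BDS1, a sulfatase, at 6174 nt with 58 molecules, and IMD2, an IMP dehydrogenase, at 6676 nt with 56. ARN2, a siderophore transporter, followed at 8350 nt with 97, and MAL31, a maltose permease, at 8709 nt with 149.

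Coverage of the coding span separated these 5 genes. IMD2 had 41 whole-ORF molecules of 56, although 49.1% of its words are unique. ARN2 had 8 of 97, and BDS1 and MAL31 had 0. All 58 BDS1 molecules and 148 of 149 MAL31 molecules started more than 100 nt inside the ORF and reached its stop codon. The sites printed above lie 913 nt inside BDS1 and 1513 nt inside MAL31, and held 13 and 22 molecules. These ORFs are 1941 and 1845 nt long, and over all unique subtelomeric ORFs from 1501 to 2000 nt there were 873 whole-ORF and 2001 internal-start molecules.

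At the other extreme, 10 genes held 64.9% of the 41848 sense molecules of subtelomeric ORFs. PRE5, an alpha subunit of the proteasome core, had 7478, and HYR1, a thiol peroxidase that senses hydrogen peroxide, had 5722. NRE1 had 2535, and MIC10, a subunit of the mitochondrial MICOS complex, had 2272. These were followed by PGA3 with 2266, the alcohol dehydrogenase ADH6 with 1915 and KRR1, needed for small ribosomal subunit synthesis, with 1627. COX14, a cytochrome c oxidase assembly factor, had 1340, the serine and threonine deaminase CHA1 had 1046 and REE1 had 948. All 10 are unique, lie 12288 to 24031 nt from an end and have ORFs of 213 to 1083 nt. Other proteasome genes in the set were PRE4, a core beta subunit, with 620 molecules and RPN12, a lid subunit, with 502, both at the right end of chromosome VI.

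Neighbouring genes could differ strongly. At the left end of chromosome XIII, PGA3 with 2266 molecules lies beside ERG13, the HMG-CoA synthase of sterol synthesis, with 8, and TUB3, an alpha-tubulin, with 2. RSC9, a subunit of the RSC chromatin remodelling complex, had 5 there. All 3 low genes had more antisense than sense molecules, 9 over ERG13, 7 over TUB3 and 12 over RSC9. Their ORFs are 1476, 1636 and 1746 nt long, and ERG13 and RSC9 had no whole-ORF molecule.

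Silent ORFs of unique sequence were mostly short and uncharacterised. Of the 22, 12 had at most 500 nt, against 27 of all 145 unique subtelomeric ORFs, and 16 had no standard name, against 38 of the 145. The longest was PHO89 (1725 nt), a sodium-phosphate cotransporter, with 0 molecules on either strand at 14662 nt from the right end of chromosome II. YJR154W (1041 nt), EMA35 (951 nt), YIR042C (711 nt) and YOL162W (648 nt) came next, and YJR154W alone of these 4 had antisense molecules, 4 of them. The shortest silent unique ORFs were YNR075C-A, YMR315W-A, TYC1, YOL166W-A and YOL164W-A, of 93 to 183 nt. Over YMR315W-A 16 antisense molecules were found.

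Direction of reading was unevenly split among the silent unique ORFs. Of ORFs read towards the chromosome end, 4 of 73 were silent, with a median of 95 molecules, and of those read away from it, 18 of 72, with a median of 26. ORFs over 500 nt gave 1 of 61 and 9 of 57, and shorter ones 3 of 12 and 9 of 15. At 25 to 50 kb the same split gave 11 of 182 and 10 of 173 in all, but 1 of 151 and 8 of 150 in ORFs over 500 nt. In short ORFs farther in it gave 10 of 31 and 2 of 23, the opposite order. Medians at 25 to 50 kb also ran the other way, at 75 molecules towards the end and 115 away from it, and at 89 and 116 in ORFs over 500 nt. Silent counts of longer ORFs were therefore uneven in both zones, while the order of the medians was not shared.

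Gene families were then taken in turn, grouped by RefSeq symbol. The seripauperins (PAU genes, with the related DAN and TIR genes), cell wall mannoproteins that are induced without oxygen, have 19 subtelomeric copies, of which 17 were silent. PAU24 with 2 molecules and PAU12 with 1 were the others. No subtelomeric PAU gene is unique, and the highest share was 35.8%. Of the 11 copies elsewhere 9 had sense molecules, with PAU23 at 282 the highest, at a median share of 79.1% unique words. All 8 Y′ helicase genes (YRF1) were silent and hold at most 1.20% unique words, so their 0 cannot be told apart from reads that were not placed.

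Sugar genes included both kinds of ORF. All 5 subtelomeric hexose transporters, HXT9, HXT13, HXT15, HXT16 and HXT17, were silent, and 9 of the 11 HXT genes elsewhere had sense molecules, with HXT3 highest at 1077. HXT13 and HXT17 are 46.0% and 46.9% unique with unique sequence before the ORF. In the maltose and isomaltose group 6 of 12 were silent, namely MAL12, MAL32, MPH2, MPH3, IMA3 and IMA4, at most 10.02% unique. MAL31 had 149 molecules, IMA1, an isomaltase, 94, the activator MAL33 72 and the permease MAL11 55. IMA2 had 6 and MAL13, an activator gene, 5 sense and 12 antisense. Whole-ORF molecules numbered 0 for MAL31, IMA1 and MAL11, 1 for MAL33 and 4 for MAL13. The sense counts of this group came almost wholly from molecules that start inside the ORF or end within it. Unique subtelomeric ORFs of 1501 to 2000 nt, which include MAL31 and MAL11, had 873 whole-ORF and 2001 internal-start molecules. SAM3 alone held 322 of the 873. The whole-ORF share of MAL31, IMA1 and MAL11 was therefore lower than that of the pooled length window, although BDS1, outside this group, also had 0 whole-ORF molecules. Whether the glucose medium bears on these counts was not tested.

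Of 6 subtelomeric iron genes 4 had sense molecules. ENB1, a transporter of the siderophore enterobactin, had 276 sense molecules, the ferric reductase gene FRE2 had 103, ARN2 97 and ARN1 58. Whole-ORF molecules among them numbered 74 for ENB1, 11 for FRE2, 8 for ARN2 and 8 for ARN1. These 4 are unique, and the 2 silent members GEX1 and GEX2, glutathione exchangers that resemble the siderophore transporters, are 26.2% unique. Aryl-alcohol dehydrogenase genes, all 5 of them subtelomeric, had 260 molecules for AAD4, 57 for AAD10 and 52 for AAD14, and 0 for AAD3 and AAD15. Of the 260 AAD4 molecules 252 were internal starts, 88 of them at 1 site.

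Vitamin genes were close to empty. Of the 9 subtelomeric thiamine and pyridoxine genes, among them THI5, THI11, THI12 and THI13 of thiamine synthesis and the SNZ and SNO pairs of pyridoxine synthesis, 7 were silent, SNZ2 had 3 molecules and THI11 had 1. None exceeds 28.4% unique words. All 14 genes of this group elsewhere, which share the symbol and need not be copies, had sense molecules. Their counts ran from 1 to 598 with a median of 35, at a median share of 100% unique words. SNO4, which the symbol places here, belongs to the Hsp31 family of chaperones, whose other subtelomeric copies HSP32 and HSP33 were also silent. The enolase-related ERR1, ERR2 and ERR3, the sorbitol dehydrogenases SOR1 and SOR2, the formate dehydrogenase FDH1 and the vacuolar sorting paralogues VTH1 and VTH2 were all silent and at most 23.7% unique.

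**Figure D4:**
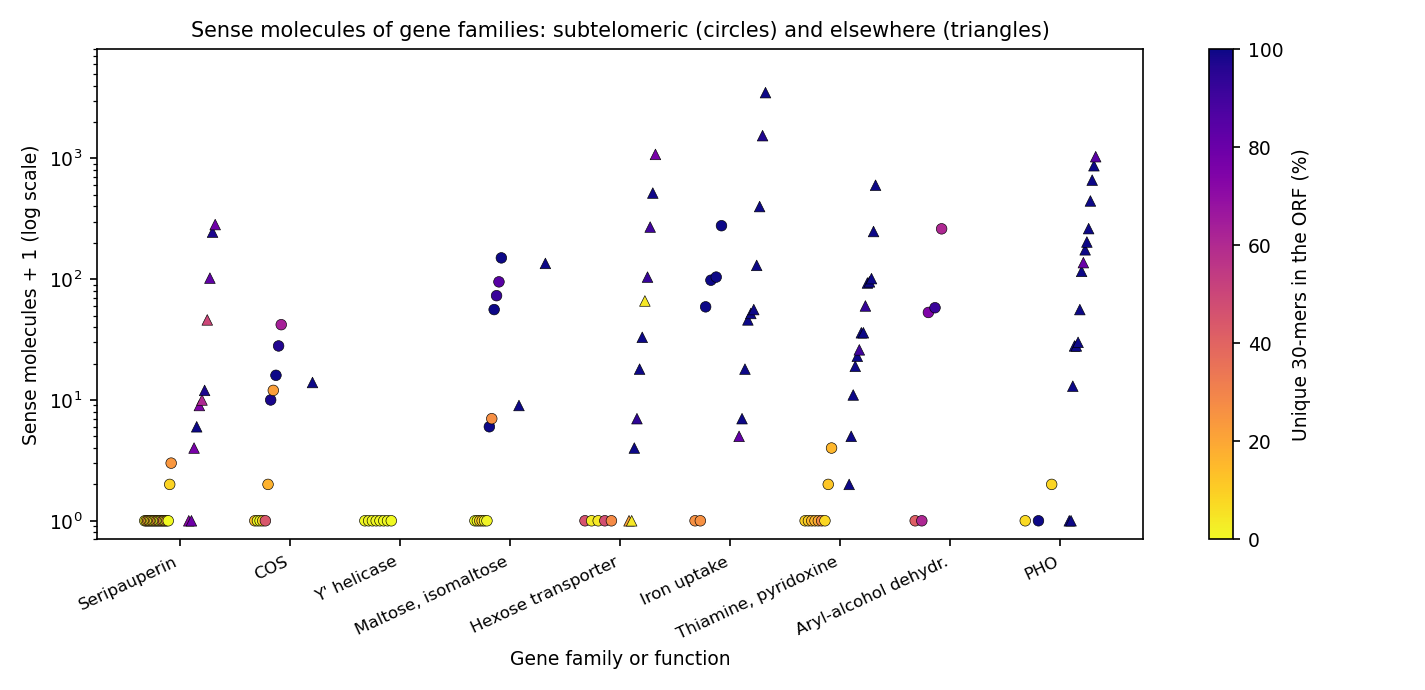
Sense molecules per gene (y axis, count + 1 on a log scale) for 9 gene groups (x axis), with subtelomeric genes as circles and genes elsewhere as triangles. Grouping was by symbol alone, so a triangle need not be a copy of the circles beside it. COS111, the only COS triangle, and MPH1 in the maltose group are there by symbol alone. Colour gives the share of unique 30-base words in the ORF (%). Subtelomeric copies at the bottom line are mostly of low unique share, and the COS, maltose and iron genes with molecules are mostly of high share.

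Unique COS genes had low sense counts, few of them from molecules that cover the ORF. COS9 had 27 sense molecules, COS12 15 and COS10 9, and the partly unique COS8 had 41 and COS7 11. COS4 had 1 and the remaining 5 were silent, of which COS6 had 17 antisense molecules. Whole-ORF molecules numbered 5 for COS12, 1 for COS4 and 0 for COS7, COS8, COS9 and COS10. Genes often used to follow silencing gave 41 molecules for COS8, 7 for RDS1 (YCR106W) and 0 for YFR057W. None of the COS8 and RDS1 molecules covered the whole ORF. Arsenic resistance genes at the right end of chromosome XVI, unique throughout, gave 127 for the activator ARR1, 3 for the exporter ARR3 and 0 for the arsenate reductase ARR2, which lies between them. PHO11 and PHO12, acid phosphatases that are 7.20% and 8.22% unique, had 0 and 1.

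The silent mating-type cassettes are both subtelomeric by this rule. At HMR, HMRA1 had 158 sense molecules, 109 of them over the whole ORF, and at HML, HMLALPHA1 had 0. HMRA1 is 100% unique in R64, and HMLALPHA1 and HMRA2 are 0% unique. The R64 sequence carries alpha information at the MAT locus, whereas BY4741 is an a-mating strain, so a1 transcripts of the MAT locus could be placed nowhere but at HMR. Transcripts of the expressed and the silenced locus cannot be told apart here, and the 158 molecules are no measure of silencing at HMR.

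Antisense molecules were those that overlapped no ORF on their own strand. They made up 867 of 42715 molecules of subtelomeric ORFs, or 2.03% (Wilson interval 1.90% to 2.17%), against 1.02% for other ORFs and 1.24% for ORFs 25 to 50 kb from an end. The direction depends on the weighting. Averaged over ORFs with at least 50 molecules, the share was 4.25% in 81 subtelomeric ORFs and 7.62% in 4381 others, with medians of 0.559% and 1.18%. Without PRE5, HYR1, NRE1, MIC10 and PGA3, the 5 highest in sense counts, the pooled share was 3.76%, and with every overlap on the opposite strand counted it was 9.16%. Neither value has a counterpart in other ORFs here, so neither can be set against their 1.02%. Any antisense molecule was found over 53.1% of unique subtelomeric ORFs and 66.1% of other unique ORFs. Sense molecules averaged 284 per unique subtelomeric ORF and 839 per other unique ORF, and antisense molecules 5.39 and 10.97. Both were lower near the ends, the sense count by more.

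Along the distance windows the pooled antisense share was 4.01%, 4.82%, 4.34%, 2.04% and 1.25% starting at the end, and in unique ORFs 1.04%, 3.65%, 4.35%, 1.74% and 1.25%. The first unique window rests on 3 antisense molecules. In both sets the share was lower beyond 15 kb than between 5 and 15 kb. The windows beyond 15 kb hold the 5 ORFs highest in sense counts. Of 14255 sense molecules of unique ORFs at 15 to 20 kb, HYR1 held 5722 and NRE1 2535. PRE5 held 7478, MIC10 2272 and PGA3 2266 of the 20697 at 20 to 25 kb. Shares by window without these 5 were not computed, so a change with distance across ORFs cannot be read from the pooled shares.

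Antisense exceeded sense in 27 subtelomeric ORFs (9.03%), against 7.58% of all nuclear ORFs, a share close to that background. Among unique ORFs the counts were 20 of 145 (13.8%) and 418 of 5425 elsewhere (7.71%). YOR387C had 2 sense and 31 antisense molecules, ECM34, a DUP-family gene, 0 and 30, and the sulfate permease gene SUL1 18 and 23. BSC5 had 5 and 22, and the flocculin gene FLO10 0 and 20, of which 12 ended near the 3′ edge of the ORF. No whole-ORF sense molecule was found for any of these 5. Antisense molecules over ECM34 started at 12 different sites, the most used being the one printed above with 5 molecules. That site lies past the ECM34 stop codon and within YHL042W, so molecules from it are antisense to both ORFs. They were given to ECM34 by the rule of greatest overlap. Of the 22 over BSC5, 9 started at the printed site inside the ORF. A genomic stretch rich in A followed the ends of 23 of the 31 antisense molecules over YOR387C, 13 of the 23 over SUL1 and 12 of the 30 over ECM34, where priming within an RNA cannot be told apart from a poly(A) tail.

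The highest antisense count was 55, over SAM3, an S-adenosylmethionine permease gene that had 507 sense molecules, followed by 34 over SRO77, which had 102. Among the 10 genes with the most sense molecules, 7 had no antisense molecule, and for PRE5 the upper Wilson limit on the antisense share was 0.0513%.

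**Figure D5:**
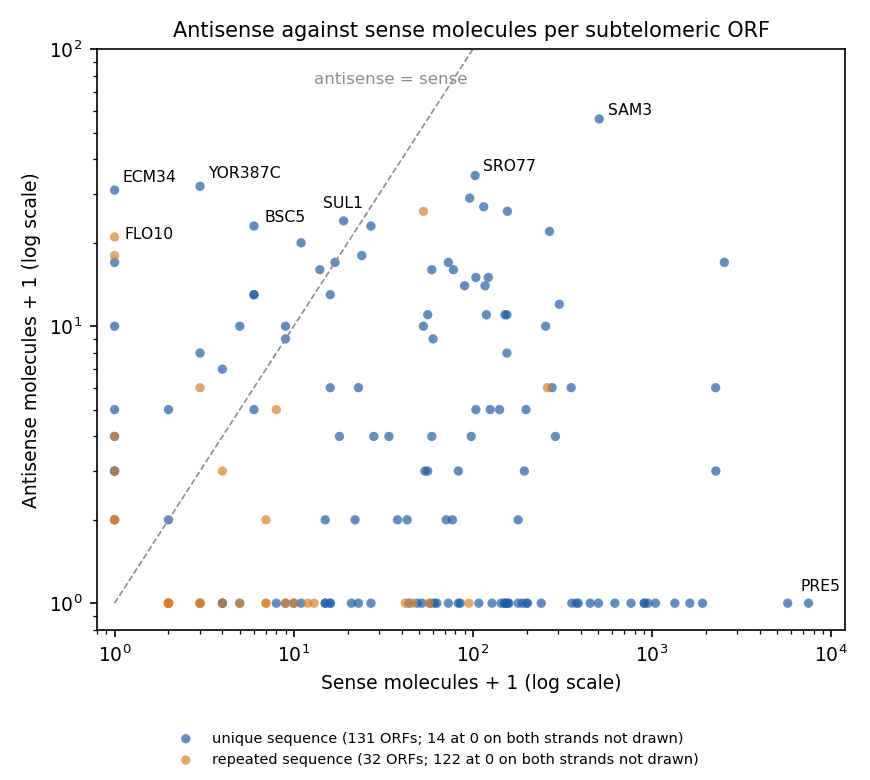
Antisense molecules (y axis) against sense molecules (x axis) per subtelomeric ORF, both as count + 1 on log scales. Blue points are unique and orange points repeated ORFs, the dashed line marks equal counts, and the 136 ORFs with 0 on both strands are not drawn. YOR387C, ECM34, BSC5, SUL1 and FLO10 lie above the line, and most ORFs with many sense molecules lie at the bottom.

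The form of sense molecules was described last. Whole-ORF molecules were 77.98% of sense molecules of subtelomeric ORFs and 86.0% of those of other ORFs. Internal starts, more than 100 nt inside the ORF and reaching its stop codon, were 19.0% of internal-start plus whole-ORF molecules, against 11.3% for other ORFs and 15.5% at 25 to 50 kb. Since the share climbs with ORF length, unique ORFs were compared by length. In subtelomeric ORFs it was 1.99%, against 1.89% in others, up to 500 nt. It was 10.4% against 6.74% from 501 to 1000 nt, 38.1% against 28.9% from 1001 to 1500 nt, and 69.6% against 62.1% from 1501 to 2000 nt. At 25 to 50 kb the values were 1.21%, 11.2%, 26.4% and 61.7% in the same order of windows.

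A few genes weigh heavily in these shares, and without the same 5 ORFs the pooled share of subtelomeric ORFs was 34.7%. That value has no counterpart in other ORFs here. CHA1 held 604 of the 1969 internal-start molecules of unique subtelomeric ORFs from 1001 to 1500 nt, more than its 440 whole-ORF molecules, and KRR1 held 410 of the 2092 from 501 to 1000 nt. In PRE5 and HYR1 the share was 3.55% and 1.93%. RPD3, the deacetylase gene of the Rpd3S complex, is itself subtelomeric and had 188 sense molecules, with 75 over the whole ORF and 112 that began inside it.

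Leaders and tails were close in length to those elsewhere as medians per ORF, but longer as medians over molecules. In 58 subtelomeric ORFs with at least 20 whole-ORF molecules, the median 5′ leader was 42.5 nt and the median 3′ tail 122 nt, against 40 and 116 nt in 2956 other ORFs. At 25 to 50 kb the medians per ORF were 34 and 103 nt. Over molecules the medians were 43 and 134 nt for subtelomeric ORFs, against 30 and 107 nt for other ORFs. Of distinct start sites, 58.7% of those of whole-ORF molecules, 31.9% of internal and 67.7% of antisense ones carried the initiator pair, against 57.6%, 26.8% and 71.7% in other ORFs. The interval for internal sites was 29.9% to 33.95%.

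Short motifs were counted in the 250 bases before the start codon on both strands. TATAAA, the TATA box core, occurred before 53.8% of subtelomeric ORFs and 42.9% of others, with 43.4% over all nuclear ORFs. Within unique subtelomeric ORFs it was present in 53.2% of those with at least 50 molecules, 52.2% of those with 1 to 49 and 11 of the 22 silent ones. TTACCC, part of the site of the regulator Reb1, occurred before 9.36% of subtelomeric ORFs and 14.4% of others, and before 13.1% of the unique ones. TTAGGG, the repeat bound by Tbf1, which is also CCCTAA read on the other strand, occurred before 4.68% and 6.17%, and over all nuclear ORFs in 6.10%. Before the 22 silent unique ORFs TTAGGG was not found in this window, and it was found before 8 of all 145 unique ones. A match of these letters is a description of the sequence only.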

How the data were processed

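The deposited table held whole-number counts of molecules per isoform, a pair of a start and an end position on a strand, per the file headers, and the 2 replicates stood in 1 pooled column made by the authors. CASAVA, Novoalign 2.07.10 and the R64 build were named in the submitters' processing notes. Duplicate removal and the treatment of reads with several placements are not given in the sources used here. No molecular identifier was mentioned, so a count can include PCR copies, and Wilson intervals (95%) cover counting error only. The pool held 6074514 molecules, and 0 value columns were left unused.

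Counts were used unscaled with python 3.11.15, numpy 2.4.6, pandas 2.3.3 and scipy 1.17.1, and the assignment code was tested on simulated data. Each isoform went to the same-strand ORF of greatest overlap, or, where it overlapped none, to the opposite-strand ORF of greatest overlap as antisense. Distance ran from the chromosome end to the nearest coding base. Uniqueness was the share of an ORF's 30-base words found once on either strand. A genomic stretch was A-rich with at least 6 A in the 10 bases after an end. With 1 pooled column no test was made.

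The ORFs and lists were chosen with earlier results of these data known. Named were the 10 ORFs with most sense molecules, the 5 with most antisense among those with more antisense than sense, the 5 nearest an end with at least 50 sense molecules, the 5 longest and 5 shortest silent unique ORFs, listed families, and silencing and H3K36 genes. PRE4, RPN12, ERG13, TUB3, RSC9, SAM3, SRO77 and the mating-type genes were picked with their values in view.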

Additional observations from a re-analysis of the deposited data

Results flagged for a closer look

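Molecules that overlapped no ORF on either strand lie outside the counts of the report, and were flagged because they had not been analysed. The series has no control sample to set their number against. Of the 46661 molecules that lay wholly within 25 kb of an end, 3391 overlapped no ORF (7.27%, Wilson interval 7.04% to 7.51%), against 60605 of 6027853 elsewhere (1.01%). By 5 kb window from the end the share was 29.0%, 34.5%, 17.1%, 4.17% and 3.90%. The counts behind these shares were 132, 588, 1160, 633 and 878 molecules, so the counts did not fall along the windows as the shares did. Each share also depends on the number of ORF molecules, and sense molecules averaged 140 per subtelomeric ORF and 1036 per other ORF. No count per length of sequence was made, so a higher share is not a higher amount of such molecules near the ends. Overlapping molecules on the same strand formed 193 groups, of which 18 had at least 50 molecules and together 1754. The group with the most, 274 molecules in 71 isoforms, spanned chrXIII:13413-14091 on the plus strand, where no gene is annotated on either strand, and 76 of them started at position 13511 with the initiator pair. Groups on an annotated gene of the same strand held 136 molecules, 87 of them over the pseudogene AAD6 at the left end of chromosome VI.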

How the results depend on the processing

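No paired analysis was possible because both replicates are pooled in 1 column, and for the same reason no replicate could be left out. Over 52 alternatives, 20 stayed within the counting limits of the value reported (0.1 on either side for the Spearman coefficient), and 32 did not. The silent share, 50.2% as reported, was 69.9% with a limit of 15 kb, 32.4% with 40 kb, 62.9% when under 10 molecules counted as silent, 15.2% in unique ORFs and, in an alternative chosen after seeing the data, 14.4% in ORFs of 100% unique words. The median of 0 became 21 within 40 kb, 55 in unique and 58.5 in fully unique ORFs. The Spearman coefficient of sense molecules against distance, 0.541, was 0.289 within 15 kb, 0.331 in unique and 0.320 in fully unique ORFs. The antisense share, 2.03%, was 3.67% within 15 kb, 1.70% within 40 kb, 1.85% from isoforms counted at least 2 times, 4.64% with each isoform counted once, 1.86% in unique ORFs, 9.16% with every overlap on the opposite strand counted, 2.46% without PRE5, 3.76% without the 5 highest ORFs, 1.18% in ORFs up to 1500 nt and 4.25% as a mean per ORF, chosen after seeing the data. That mean lies below the 7.62% of other ORFs, whereas the pooled share lies above their 1.02%, so the order turned round. More antisense than sense was found in 13.8% of unique ORFs. The internal-start share, 19.0%, was 33.0% within 15 kb, 21.4% within 40 kb, 17.3% from isoforms counted at least 2 times, 43.2% with each isoform counted once, 17.99% in unique ORFs, 22.5% without PRE5, 34.7% without the 5 highest ORFs, 19.6% and 17.96% with starts beyond 50 and 200 nt, and 12.8% in ORFs up to 1500 nt. Values pooled over molecules rest on a few ORFs, and those over ORFs on whether repeated ORFs are counted. Isoforms each counted once keep the silent share by construction, and internal starts were not recomputed with every overlapped ORF counted.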

Other observations

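The 32 annotated telomere regions, 431 to 13897 nt long and 140711 nt in all, held 51 molecules in 4 regions, namely 26 at the right end of chromosome VIII, 18 at the right end of VII, 6 at the left end of II and 1 at the left end of V. These counts can include molecules of ORFs. YBL113C lies within the region at the left end of II and itself had 6 sense molecules. At the right end of VIII the region begins at position 556105. IMD2 ends at 555967 with a median 3′ tail of 181 nt, which reaches into it. The median unique share below is that of the regions. Their median share of unique 30-base words was 12.5%, and 20 of the 28 regions without molecules were under 50% unique, where absence cannot be told apart from reads that were not placed. The other 8 regions without molecules were 52.6% to 95.3% unique and 431 to 913 nt long. Genes of the silencing machinery lie elsewhere in the genome and all 19 looked up had sense molecules, from 14 for RIF1, a telomere length regulator, to 1046 for SAS4, a subunit of the SAS histone acetyltransferase. Of the SAS4 molecules 14 covered the whole ORF and 1022 were internal starts. SIR2, the deacetylase of the Sir complex, had 193, SIR3 60 and SIR4 300, and SIR1, whose near coding base lies 24312 nt from an end and whose far one lies outside the limit, had 87. Whole-ORF molecules among these numbered 6 for SIR2, 0 for SIR3, 0 for SIR4 and 18 for SIR1. Of the genes of the H3K36 pathway, EAF3 had 255 molecules, SIN3 99 and RCO1 20, with 116, 0 and 0 over the whole ORF.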
